A study of Mus musculus with 20 samples.

Results

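The fibroblast growth factor (FGF) genes measured in whole mouse embryos are 38 of the 18194 genes with a probe set on the array. They were chosen by symbol: every numbered Fgf gene, the receptors Fgfr1 to Fgfr4 and Fgfrl1, the Sprouty genes Spry1 to Spry4, the Spred genes Spred1 to Spred3, and the target genes Etv4, Etv5, Dusp6 and Il17rd. Of the 38, 22 are Fgf genes and 16 are receptors, targets or feedback inhibitors. RNA came from wild-type C57BL/6 embryos without the amnion, kept free of specific pathogens, of mixed sex, at 8 stages. There were 3 arrays for each day from E7.5 to E10.5, and 2 arrays for each later stage (E12.5, E14.5 and E16.5, then E18.5). No treatment or engineered allele is named, and the groups are told apart by embryonic day. Each sample was RNA of several embryos combined and was put on its own Affymetrix Mouse Genome 430 2.0 array. The design text calls the samples biological, so a p-value here weighs a difference against the spread between pools.

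Secreted FGFs bind receptor tyrosine kinases together with heparan sulfate, or with klotho proteins in the case of the endocrine FGFs. The bound receptors signal through Ras and the MAP kinase ERK to ETS factors such as Etv4 and Etv5. The same signal switches on its own brakes: Sprouty and Spred proteins act between the receptor and Raf, Dusp6 removes phosphate from ERK, and Il17rd (Sef) acts at the receptor and on ERK. In the embryo, FGFs pattern the primitive streak, the isthmus between midbrain and hindbrain, the limb buds and the branching epithelia. Etv4, Etv5, Dusp6 and Sprouty transcripts are widely used as readouts of where FGF signalling is active. RNA of whole embryos averages all of these sites, so fewer cells of a type and less RNA per cell cannot be told apart.

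The 250 bases before the annotated start of 5 members are shown because these genes carry the main patterns described here. Fgf3 had the steep early fall, and Fgf18 and Fgf9 rose at E8.5. Il17rd, a feedback gene, moved in both periods with the probe set used, and the target Etv5 fell at E9.5. The sequences are from RefSeq's table for GRCm38.p6, are written 5′ to 3′ on the gene's own strand, and end at the base before the start. Etv5 has 2 starts in the table, and the one farthest upstream was taken. Capitals mark GGAAG, a core of ETS factor sites, or its reverse complement CTTCC.
Fgf3 (chr7:144838362-144838611, plus strand): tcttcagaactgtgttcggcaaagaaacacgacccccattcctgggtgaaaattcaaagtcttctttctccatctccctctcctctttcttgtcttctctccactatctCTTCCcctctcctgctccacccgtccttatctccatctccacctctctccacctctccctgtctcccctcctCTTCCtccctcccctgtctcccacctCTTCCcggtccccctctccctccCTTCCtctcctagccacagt
Fgf18 (chr11:33147401-33147650, minus strand): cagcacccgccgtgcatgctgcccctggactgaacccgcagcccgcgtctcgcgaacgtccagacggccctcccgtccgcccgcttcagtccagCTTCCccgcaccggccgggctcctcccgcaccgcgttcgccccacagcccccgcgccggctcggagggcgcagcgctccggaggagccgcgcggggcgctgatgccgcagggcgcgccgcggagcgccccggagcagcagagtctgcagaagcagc
Fgf9 (chr14:58072436-58072685, plus strand): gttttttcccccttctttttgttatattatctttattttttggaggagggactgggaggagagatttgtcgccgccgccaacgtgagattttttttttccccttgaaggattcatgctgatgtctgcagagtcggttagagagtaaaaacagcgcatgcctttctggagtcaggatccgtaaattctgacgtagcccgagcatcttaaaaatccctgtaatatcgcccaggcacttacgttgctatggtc
Il17rd (chr14:27038751-27039000, plus strand): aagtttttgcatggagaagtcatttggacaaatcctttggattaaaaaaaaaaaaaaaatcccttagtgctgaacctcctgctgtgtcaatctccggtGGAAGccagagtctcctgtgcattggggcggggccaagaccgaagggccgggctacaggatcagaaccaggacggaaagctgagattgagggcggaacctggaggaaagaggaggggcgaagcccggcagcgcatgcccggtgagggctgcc
Etv5 (chr16:22439571-22439820, minus strand): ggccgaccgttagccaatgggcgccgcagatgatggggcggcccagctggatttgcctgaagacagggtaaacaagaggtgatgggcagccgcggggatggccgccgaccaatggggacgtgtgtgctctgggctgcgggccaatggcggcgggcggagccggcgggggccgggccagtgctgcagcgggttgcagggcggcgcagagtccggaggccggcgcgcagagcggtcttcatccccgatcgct
Fgf3 has 4 of these matches, Fgf18 and Il17rd have 1 each, and Fgf9 and Etv5 have 0. Of the 38 members, 28 were found in the table, and 18 of the 28 (64.3%) held at least 1 match on either strand, against 64.1% of the 32851 promoters in the table. A match is a run of letters and not a binding site. CpG dinucleotides were above the table's median count of 6 in 21 of the 28.

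Values are MAS5 signals, a linear brightness per probe set. A change is the difference between stage means of log2(signal + 25.9), given with its limma standard error (SE), over 3 arrays a stage to E10.5 and 2 from E12.5 on. Rose and fell are written only where limma's adjusted p was under 0.05 and the change reached 2-fold on that scale. Where a gene has several probe sets, the brightest on average stands for it. The arrays form 2 sets: the array medians ran from 67.2 to 91.1 over E7.5 to E10.5 and from 156 to 178 over E12.5 to E18.5, and the geometric mean of the added poly-A control probe sets ran from 9.95 to 31.9 and from 327 to 480, in the same order. Stage and array set cannot be told apart between E10.5 and E12.5, so calls were counted inside each set only. Of the 38 members, 33 were above the array median on at least 2 arrays and were tested, among 14045 genes. The other 5, Fgf2, Fgf16, Fgf20, Fgf21 and Fgf23, were above it on 0 arrays. Over all 20 arrays Fgf2, or basic FGF, read 1.61 to 58.5, Fgf16 2.40 to 90.4, Fgf20 2.42 to 48.2, and the endocrine ligands Fgf21 and Fgf23 1.89 to 73.1 and 5.64 to 64.9. A gene can pass this filter through the stage at which it is high, so counts over the 33 are descriptions. On every array of a stage, 16 to 22 of the 38 members were above the array median, depending on the stage, and of the 22 Fgf genes 4 to 7 were. Over all genes the share was 57.6% to 64%, depending on the stage.

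The main shift in the early embryos lay between E7.5 and E9.5. From E7.5 to E8.5, 5 of the 33 tested members rose (15.2%): Fgf17, Fgf18, Fgf9, Fgf8 and Il17rd. Over all genes tested, 6.27% rose. In the same step Fgf5, Fgf3 and Fgfr4 fell, 3 of 33 (9.09%), beside 4.93% of all genes. From E8.5 to E9.5 the direction turned: Fgf3, Etv4, Fgf17, Fgfr4, Etv5 and Fgf8 fell, 6 of 33 (18.2%), beside 1.68% of all genes, and 0 rose, beside 2.48%. At an unadjusted p below 0.05 in limma, 2 members were higher and 14 lower in that step. The median change of the 33 was 0.29 from E7.5 to E8.5 and -0.34 from E8.5 to E9.5, against 0.03 and 0.01 over all genes tested. The E8.5 arrays belong to both steps, so a value high at E8.5 enters both with opposite signs. From E9.5 to E10.5, 0 of 33 rose and 0 fell in limma, beside 3.15% and 0.513% of all genes, with 3 higher and 2 lower at an unadjusted p below 0.05. Of the 33, 16 had their highest early mean at E8.5, 8 at E7.5, 7 at E10.5 and 2 at E9.5. Highest stages and unadjusted p-values were not counted over all genes, so these counts are descriptions of the members only.

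Over the whole early period, E10.5 against E7.5, Fgf6 rose (1 of 33, 3.03%) and Fgf3, Fgfr4, Etv4 and Etv5 fell (4 of 33, 12.1%), beside 16% and 7.49% of all genes. The median change of the 33 was 0.16, against 0.11 over all genes tested. The latter became 0.006 after quantile normalization and -0.06 after scaling each array by its 75th percentile, and the 5 called members kept their direction under both. In the later period, E18.5 against E12.5, Fgf1 and Fgf6 rose (2 of 33, 6.06%) and Il17rd, Fgf15, Spry3 and Spred3 fell (4 of 33, 12.1%), beside 15.2% and 6.44% of all genes. After quantile normalization that split was 1 rise and 4 falls. No single later step held a called member: 0 of 33 rose and 0 fell in limma from E12.5 to E14.5, E14.5 to E16.5 and E16.5 to E18.5. All genes rose in 3.28%, 3.6% and 3.52% and fell in 0.37%, 0.178% and 0.776% of cases in these steps. At an unadjusted p below 0.05, 2, 2 and 0 members were higher and 3, 4 and 1 were lower. The F test over the 4 early stages called 12 of 33 members (36.4%), beside 27.9% of all genes, and that over the 4 later stages called 5 (15.2%), beside 22.2%. Fgf15 and Il17rd were called in both, and 18 of the 33 in neither. Calls in both or in neither were not counted over all genes, so these counts only describe the members.

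**Figure D1:**
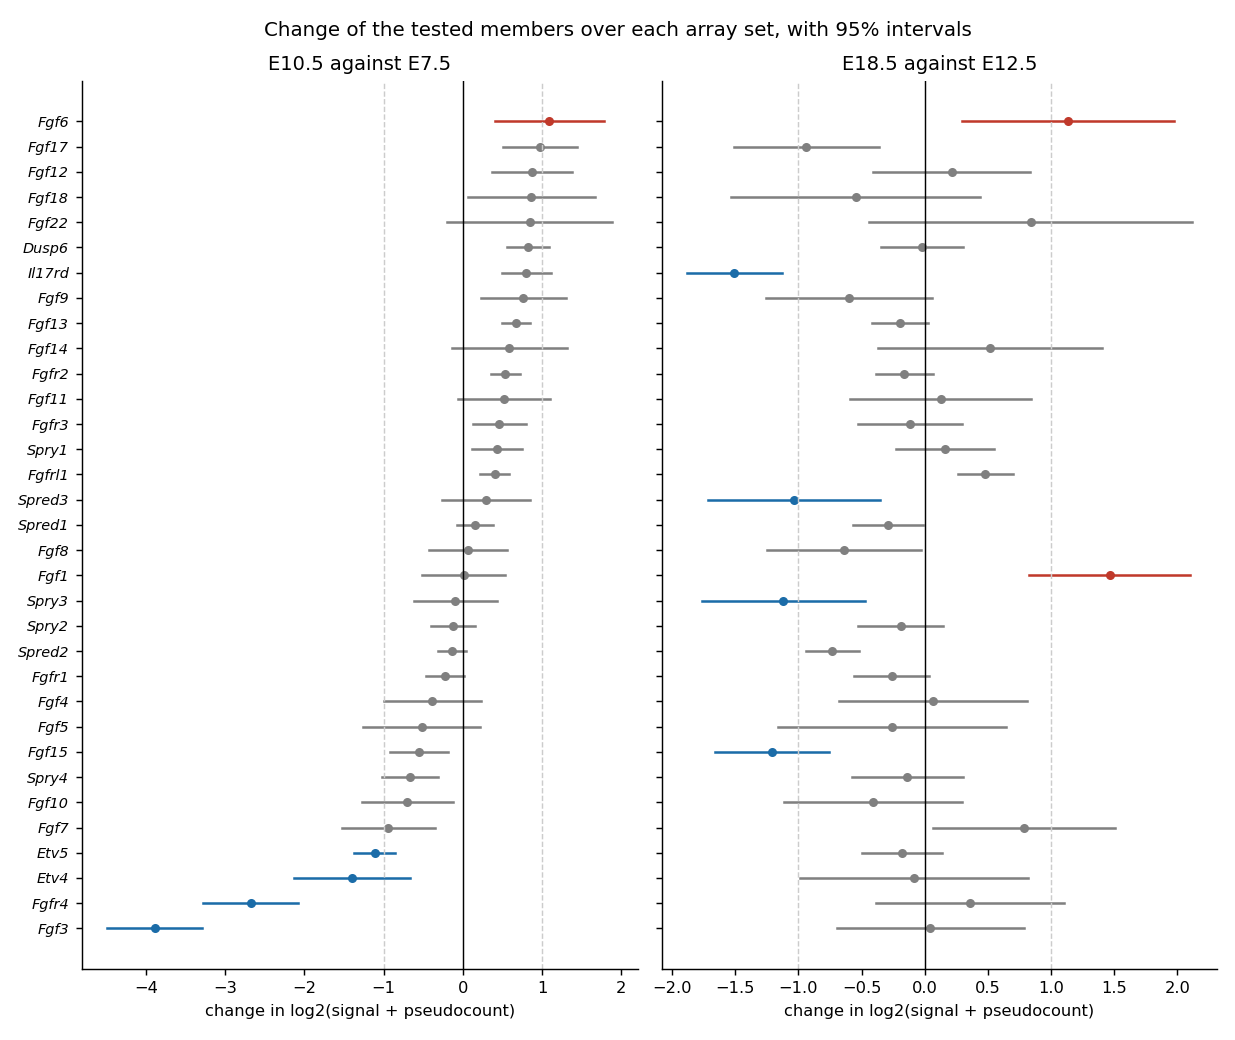
Each point is the change of 1 of the 33 tested members in log2(signal + 25.9), with its 95% interval, for E10.5 against E7.5 (left) and E18.5 against E12.5 (right); red marks members that rose, blue members that fell, and dashed lines a 2-fold change. Fgf3 and Fgfr4 stand farthest to the left in the early panel, at -3.89 and -2.68, and Il17rd at -1.51 in the later one.

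Fgf8, Fgf17 and Fgf18 form a subfamily of organiser signals, used among other places at the streak, the isthmus and the limb bud. All 3 rose from E7.5 to E8.5. Fgf17 gave signals of 57.9, 71.5 and 106 on the E7.5 arrays, 595, 396 and 472 at E8.5, 183, 217 and 190.2 at E9.5 and 172, 188 and 166 at E10.5. The E8.5 arrays were the highest of the early set without overlap. The rise was 2.31 ± 0.22 (SE; adjusted p = 7e-08), or 4.95-fold, and the change that followed was -1.19 ± 0.22 (SE; adjusted p = 0.000736). Fgf8 followed the same order of stages, with 128, 115 and 184, then 471, 351 and 309, then 189, 169 and 161, then 145, 149 and 147. Its changes were 1.27 ± 0.24 (SE; adjusted p = 0.000246) and -1.0004 ± 0.24 (SE; adjusted p = 0.00569). The later of these lies on the 2-fold limit: without E8.5 replicate 1 it was -0.84, without E9.5 replicate 2 -0.99 and without E9.5 replicate 3 -0.96, each under 2-fold, and after quantile normalization the changes were 0.94 and -0.86. Between E7.5 and E10.5 Fgf8 differed by 0.06 (95% interval -0.43 to 0.56).

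Fgf18 gave 13.4, 30.6 and 17.4 at E7.5 and 194, 185 and 155 at E8.5, a rise of 2.15 ± 0.39 (SE; adjusted p = 0.000146), or 4.44-fold. Its arrays then spread widely, with 117, 184 and 78.5 at E9.5 and 134, 81.3 and 7.99 at E10.5, and neither later early step passed the limit. Its signal was near the array median in the later set: 195 and 196 at E12.5, 218 and 252 at E14.5, 150.1 and 212 at E16.5 and 142 and 111 at E18.5. Fgf17 went from 77.3 and 86.6 at E12.5 to 35.9 and 25.2 at E18.5, a change of -0.94 ± 0.27 (SE; adjusted p = 0.00696) that is under 2-fold. Fgf8 was at 32.04 and 8.89 at E12.5 and at 3.25 and 2.69 at E18.5, far below the array median throughout. The ratio of Fgf8 to Fgf17 within an array changed over the early stages (stage means of the log2 ratio 0.69, -0.35, -0.16 and -0.22; exact permutation test, adjusted p = 0.038 over 24 tests), so the 2 signals moved unequally. The adjusted p of that test was 0.0537 without E8.5 replicate 3 and 0.0551 with the mean of all probe sets. It was also above 0.05 without replicate 2 of E16.5 or E18.5. The early ratio does not use those arrays, and its adjusted p moved because the adjustment covers both array sets. The log2 ratio of Fgf17 to Fgf18 had means of -1.04, -1.72, -1.48 and -1.43 over the later stages (exact permutation test, adjusted p = 0.038). Fgf17 was under the array median on every later array, and the adjusted p was 0.193 with a pseudocount 4 times smaller and 0.0914 to 0.234 without E12.5 replicate 2, E14.5 replicate 1 or any 1 of the E16.5 and E18.5 arrays, so no change is read from this ratio.

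**Figure D2:**
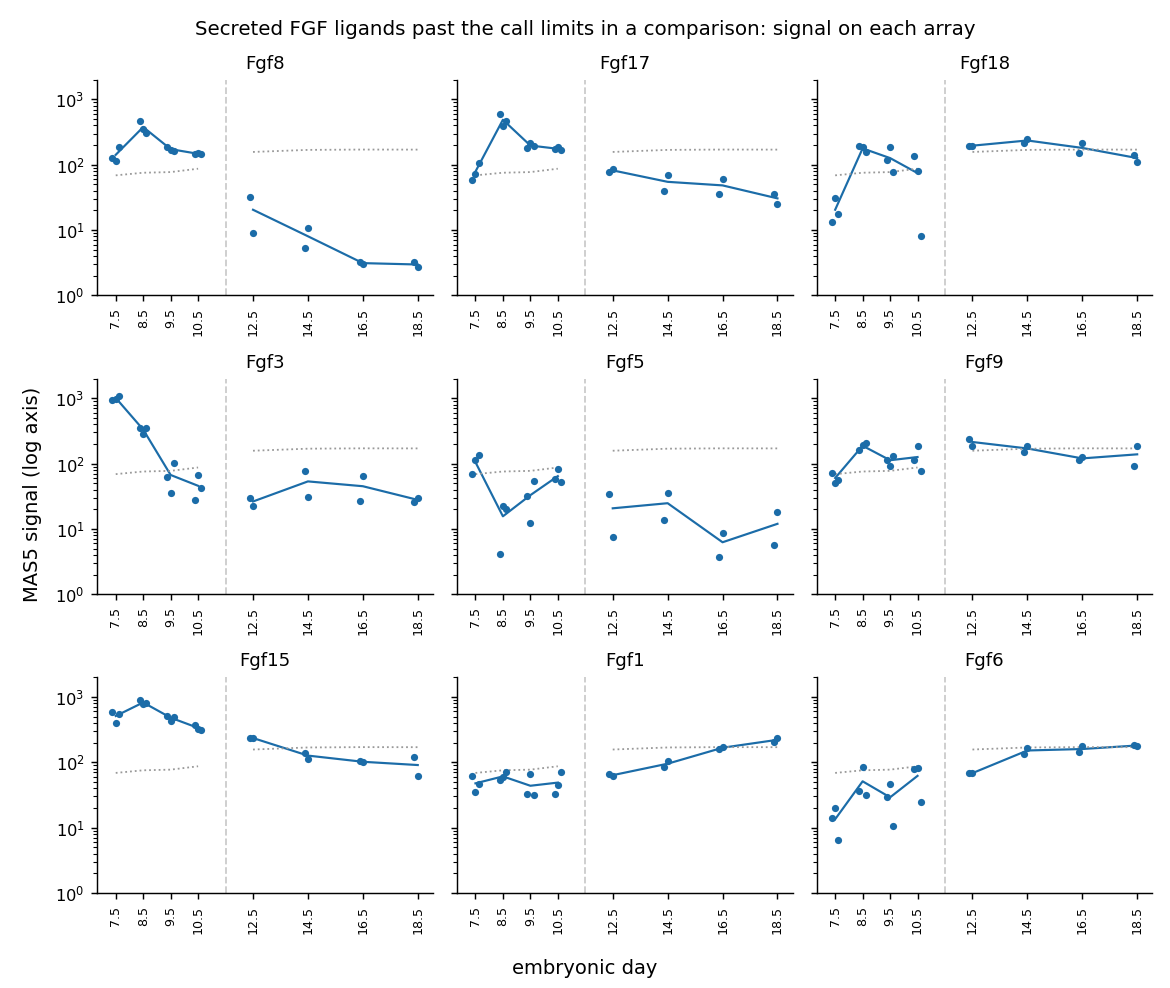
MAS5 signal (log axis) against embryonic day for the 9 secreted ligands past the call limits in at least 1 comparison inside an array set. Points are arrays, solid lines join stage means, dotted lines are the mean array median of the stage, and the dashed line separates the array sets. Fgf17 and Fgf8 are highest at E8.5, Fgf3 goes from 952 or more at E7.5 to below the dotted line at E10.5, and Fgf1 climbs from E12.5 to E18.5.

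Fgf3, a ligand used in the hindbrain, the inner ear and the tail bud, had the steepest fall of the 33. Its signals were 952, 979 and 1098 at E7.5, 355, 286 and 351 at E8.5, 62.5, 35.8 and 102 at E9.5 and 27.6, 67.4 and 41.8 at E10.5. The E7.5, E8.5 and E9.5 arrays did not overlap, while those of E9.5 and E10.5 did. The first step was -1.54 ± 0.29 (SE; adjusted p = 0.000226) and the second -2.002 ± 0.29 (SE; adjusted p = 4.26e-05). Over the period the change was -3.89 ± 0.29 (SE; adjusted p = 4.02e-10), or 14.8-fold lower at E10.5. It was called under each of the 30 alternatives, with values from -4.36 to -2.91, and its other 2 tested probe sets fell as well, by 3.13 and 2.99 on the log2 scale. From E12.5 on the stage means lay between 26.2 and 53.3, under the array median, with no called change. Fgf5, a ligand of the epiblast before and during gastrulation, gave 68.3, 113 and 134 at E7.5 and 4.06, 22.7 and 19.9 at E8.5, a change of -1.66 ± 0.35 (SE; adjusted p = 0.000843). Fgf5 was above the array median only on the 3 E7.5 arrays, so it entered the test through the stage at which it was high. With no filter the adjusted p in limma was 0.000451, and with a pseudocount 4 times larger the change was -0.80, under 2-fold. At E10.5 its arrays read 57.8, 82.1 and 52.5, which overlaps E7.5, and the change over the period was -0.52 (95% interval -1.26 to 0.22). The early arrays also differed in markers of the streak and caudal mesoderm: the summed signal of the 6 markers with a probe set was 3099 to 4007 at E7.5 and 436 to 466 at E10.5, where Mixl1, Tbx6, Msgn1 and Cdx1 were under the array median on every array. Trophoblast markers summed to 8131 to 9683 at E7.5 and to 674 to 855 at E10.5, with Elf5, Ascl2, Cdx2 and Tpbpa of the 7 under the median at E10.5. The part of either in the falls of Fgf3 and Fgf5 was not tested.

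Fgf4 and Fgf6 share a subfamily with Fgf5. Fgf4, a ligand of the streak and the limb bud ridge, gave 118, 82.1 and 142 at E7.5 and 42.7, 104 and 107 at E10.5 with the probe set used, a difference of -0.38 (95% interval -0.99 to 0.22), while its other probe sets behaved differently, as described with the probe sets. Fgf6, a ligand of myogenic cells, passed the call limits over both periods at low signal. It was above the array median on 3 arrays, E8.5 replicate 2 and both E18.5 arrays, so all E7.5, E10.5 and E12.5 arrays were under it, and it was tested in part through the stage called high in the later period. With no filter the adjusted p-values in limma were 0.00871 and 0.026. Its arrays read 14.1, 19.7 and 6.56 at E7.5, 36.7, 85.1 and 31.7 at E8.5, 29.9, 46.7 and 10.7 at E9.5 and 79.4, 82.2 and 24.5 at E10.5. E7.5 and E10.5 did not overlap, although 1 array at E10.5 was close to E7.5, and the change was 1.09 ± 0.33 (SE; adjusted p = 0.00734). The later arrays went from 68.4 and 68.2 at E12.5 to 136 and 167 at E14.5, 144 and 175 at E16.5 and 185 and 177 at E18.5, a change of 1.14 ± 0.40 (SE; adjusted p = 0.0224). Both calls depend on single arrays. The early change was 0.96 without E7.5 replicate 3, 0.92 without E10.5 replicate 1 and 0.90 without E10.5 replicate 2, under 2-fold in each case. The adjusted p of the later change was 0.0784 to 0.0921 without any 1 of the 4 arrays of E12.5 and E18.5, and 0.0992 after quantile normalization, in a range of 0.000312 to 0.0992 over its alternatives. The 7 skeletal muscle markers summed to 9098 to 9221 at E12.5, where Ckm alone was under the array median, and to 104366 to 109118 at E18.5. Their part in the rise was not tested.

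Fgf7 and Fgf10 are mesenchymal signals to epithelia, Fgf10 being needed for lung and limb buds, and Fgf22 acts at synapses. None of these 3 relatives of Fgf3 was called inside an array set. The F tests called 27.9% of all genes in the early set and 22.2% in the later one. Fgf10 read 63.4, 57.5 and 64.8 at E7.5 and 49.3, 15.7 and 24.6 at E10.5, a change of -0.70 ± 0.27 (SE; adjusted p = 0.0347). Fgf7 went the same way with the probe set used, at -0.94 ± 0.28 (SE; adjusted p = 0.00735), from 29.8, 88.7 and 45.1 to 4.18, 21.1 and 19.6. Both are under 2-fold, at signals that were below the array median apart from 1 Fgf7 array at E7.5. Within the later set Fgf7 read 207 and 196 at E12.5 and 376 and 355 at E18.5 (change 0.78 ± 0.35 SE, adjusted p = 0.0631), and Fgf10 read 60.7 and 129 and 68.6 and 54.9. Fgf22 spread widely between arrays of a stage, for example 12.7 and 123 on the E12.5 arrays.

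Fgf9, a ligand of mesothelium, lung and gonad, gave 72.6, 51.1 and 56.2 at E7.5, 161, 191 and 209 at E8.5, 112, 92.6 and 132 at E9.5 and 112, 188 and 77.1 at E10.5. The E8.5 arrays lay above every E7.5 array, and the rise of 1.31 ± 0.26 (SE; adjusted p = 0.000367) was called under each of its 29 alternatives. The later steps did not pass the limit, and E18.5 against E12.5 differed by -0.60 (95% interval -1.26 to 0.06). Fgf15, the mouse counterpart of human FGF19, acts in the developing brain and heart and, from the ileum, on bile acid synthesis in the liver. It was highest at E8.5, at 824 ± 69.5 (SD, n = 3), against 512 ± 101 at E7.5 and 336 ± 28.9 at E10.5. The F test over the early stages called it (adjusted p = 5.08e-05), while each single early step stayed under 2-fold, with 0.68 ± 0.18 (SE; adjusted p = 0.00441) and -0.74 ± 0.18 (SE; adjusted p = 0.00538) for the first 2. In the later set its arrays read 235 and 235 at E12.5, 140.1 and 113 at E14.5, 104 and 99.8 at E16.5 and 121 and 60.8 at E18.5. The change was -1.21 ± 0.22 (SE; adjusted p = 8.83e-05), without overlap of the E12.5 and E18.5 arrays, and -0.83, under 2-fold, without E18.5 replicate 2. The 5 intestinal markers with a probe set summed to 153 to 192 at E12.5, all under the array median, and to 14556 to 16849 at E18.5, where Cdx1 alone was under it. Their part in the fall of Fgf15 was not tested.

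Fgf1, or acidic FGF, can bind all FGF receptors. Over the early stages it differed by 0.01 (95% interval -0.51 to 0.53) from E7.5 to E10.5. Its later arrays read 66.3 and 60.8 at E12.5, 85.1 and 105 at E14.5, 162 and 172 at E16.5 and 207 and 235 at E18.5. Each stage lay above the one before without overlap, and the rise to E18.5 was 1.46 ± 0.31 (SE; adjusted p = 0.00045), or 2.76-fold. Fgf1 was above the array median only on the 2 E18.5 arrays, so it entered the test through the stage at which it was high. With no filter on low signal the adjusted p of the same change was 0.000605 in limma. Without either E12.5 array the change was 1.42 or 1.51 and was called. Without either E18.5 array Fgf1 no longer passed the filter and was not tested, and with a pseudocount 4 times larger the change was 0.96, under 2-fold. Over the same stages the epidermis markers summed to 2496 to 2569.9 at E12.5 and to 94942 to 97669.6 at E18.5, and the muscle marker sums were those given with Fgf6. Their part in the rise of Fgf1 was not tested.

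Fgf11, Fgf12, Fgf13 and Fgf14 are FGF homologous factors, which stay inside the cell and bind voltage-gated sodium channels instead of FGF receptors. None of the 4 was called inside an array set. Over all genes, the F tests called 27.9% in the early set and 22.2% in the later one. Fgf13 gave 873, 826 and 782 at E7.5, 1137, 1225 and 1329.9 at E8.5, 1160.5, 958 and 1078 at E9.5 and 1286, 1247 and 1461 at E10.5. Its E10.5 arrays were all above those of E7.5, with a difference of 0.67 ± 0.09 (SE; adjusted p = 1.24e-06), under 2-fold. Fgf12 differed by 0.87 ± 0.24 (SE; adjusted p = 0.00446), from 48.8, 15.4 and 36.7 to 62.3, 73.98 and 108. Fgf11 and Fgf14 were below the array median at the early stages, and their intervals over the period, -0.06 to 1.11 and -0.14 to 1.31, include 0. Their later arrays read 157 to 220.4 for Fgf11 and 79.9 to 271 for Fgf14. In the later set the ratio of Fgf12 to Fgf13 changed, with stage means of the log2 ratio of -3.56, -3.38, -3.01 and -3.15 (exact permutation test, adjusted p = 0.038). The adjusted p of that test was 0.0686 after quantile normalization. The ratio also did not pass without either E12.5 array or replicate 2 of E16.5 or E18.5. The 7 neuron markers summed to 1524 to 1693 at E7.5, with Dcx, Elavl4 and Snap25 under the array median, to 15165 to 16460 at E10.5 and to 22631 to 23186 at E12.5. Their part in the differences of Fgf12 and Fgf13 was not tested.

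Of the 4 kinase receptors, 3 changed by less than 2-fold over the early stages and Fgfr4 fell, beside 7.49% of all genes from E7.5 to E10.5. Fgfr1, the main receptor of epiblast and mesenchyme, read 1018, 1036 and 1163 at E7.5 and 1009, 896 and 848 at E10.5 and differed by -0.22 (95% interval -0.46 to 0.02). Fgfr2, which has epithelial and mesenchymal splice forms, read 1284, 1127 and 1011 and then 1718, 1573 and 1684, a difference of 0.54 ± 0.09 (SE; adjusted p = 2.39e-05) without overlap. Fgfr3, a receptor of cartilage and neural tissue, read 617, 544 and 741 at E7.5, 382, 555 and 457 at E8.5 and 736, 954 and 949 at E10.5 (difference from E7.5 0.46 ± 0.16 SE, adjusted p = 0.0195, with overlap). Within an array and with the probe sets used, Fgfr1 moved down against Fgfr2 (stage means of the log2 ratio -0.08, -0.48, -0.91 and -0.84) and against Fgfr3 (0.74, 1.07, 0.34 and 0.07). The adjusted p-values of the exact permutation test were 0.038 and 0.041, and they passed the limit under 16 and 15 of 27 alternatives. The 27 include leaving out each of the 8 later arrays, which leaves the early ratios as they were. For Fgfr1 and Fgfr2 the adjusted p-values were 0.0528 to 0.0874 without any 1 of the E7.5 arrays, E8.5 replicate 1, or replicate 2 or 3 of E9.5 or E10.5. With the mean of all probe sets the value for this pair was 0.0748. For Fgfr1 and Fgfr3 they were 0.0506 to 0.0798 without any 1 of the E7.5 or E8.5 arrays, E9.5 replicate 2, or replicate 2 or 3 of E10.5. After quantile normalization the value for this pair was 0.0571. Both pairs were also above 0.05 without replicate 2 of E16.5 or E18.5. The early ratios do not use those arrays, and their adjusted p-values moved because the adjustment covers both array sets. These ratios show unequal change and not which receptor is more abundant. They also rest on the probe set used for Fgfr1. From E7.5 to E10.5 another tested probe set of Fgfr1 differed by -0.18 and a further one by 0.50 (adjusted p = 0.398 and 0.0971 in limma). Over the later stages the ratios of Fgfr1, Fgfr2 and Fgfr3 to each other moved by at most 0.19 between stage means, and none passed (adjusted p = 0.76 to 0.77, exact permutation test with a smallest possible p of 0.0095).

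Fgfr4, a receptor of endoderm, liver and early muscle, fell in both of the first 2 steps with the probe set used. Its arrays read 384, 257 and 306 at E7.5, 103, 96.2 and 125 at E8.5, 39.3, 51.01 and 22.3 at E9.5 and 28.1, 61.02 and 5.19 at E10.5. The first 3 stages did not overlap. The steps were -1.34 ± 0.29 (SE; adjusted p = 0.000952) and -1.10 ± 0.29 (SE; adjusted p = 0.0117), the second with an adjusted p of 0.0647 without E9.5 replicate 3, in a range of 0.00262 to 0.11 over its alternatives. Averaging its probe sets gave steps of -0.68 and -0.45, neither of them called. Of the 4 probe sets tested singly, the 3 not used had changes of -0.82, -0.48 and -0.59 from E7.5 to E8.5, with adjusted p = 0.0715, 0.313 and 0.0773 in limma. Over the period the change was -2.68 ± 0.29 (SE; adjusted p = 1.12e-07), or 6.41-fold lower at E10.5, and was called under each of its 29 alternatives. The log2 ratio of Fgfr3 to Fgfr4 on the same array changed by 3.14 from E7.5 to E10.5 (stage means 0.96, 1.86, 3.50 and 4.10; exact permutation test, adjusted p = 0.010), past the limit under each of 26 alternatives. Those that leave out a later array do not change this early ratio. In the later set Fgfr4 read 231 and 179 at E12.5 and 219.97 and 325 at E18.5, with a difference of 0.36 (95% interval -0.38 to 1.10). The 7 markers of visceral and yolk sac endoderm summed to 68303 to 77987 at E7.5, 25909 to 28855 at E8.5, 3277 to 8365 at E9.5 and 9282 to 10923 at E10.5, with Hnf4a and Amn under the array median at E10.5. Their part in the fall of Fgfr4 was not tested. Fgfrl1, which binds FGFs but lacks a kinase domain, read 1409.6 and 1478 at E12.5 and 2122 and 1924 at E18.5, higher without overlap but under 2-fold (0.48 ± 0.10 SE, adjusted p = 0.000652).

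**Figure D3:**
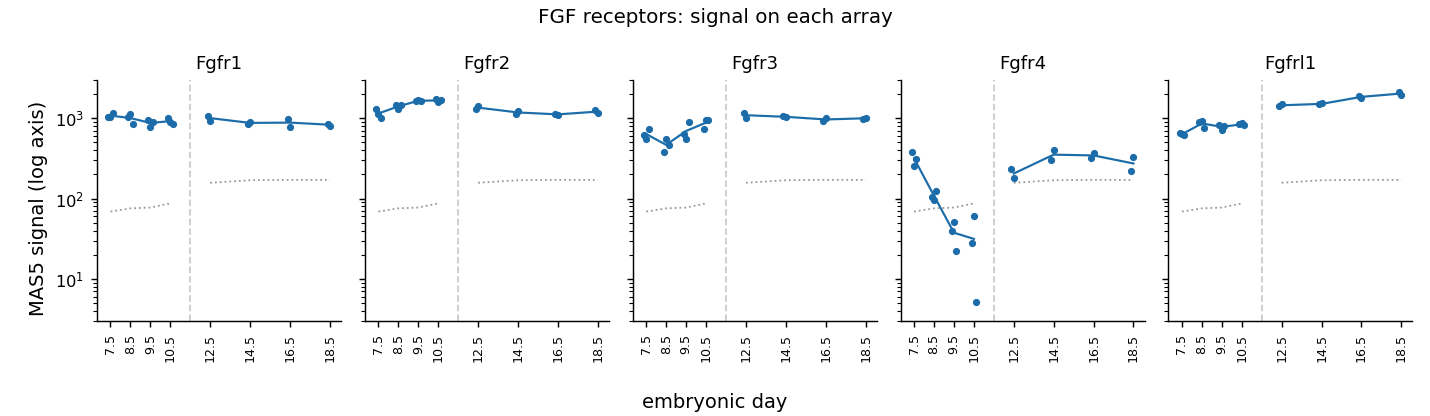
MAS5 signal (log axis) of the 5 receptor genes against embryonic day; points are arrays, solid lines join stage means, dotted lines are the mean array median, and the dashed line separates the array sets. Fgfr4 alone goes below the dotted line, at E9.5 and E10.5, while the other 4 stay above it on every array.

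Of the targets, Etv4 and Etv5, ETS factors that ERK signalling switches on, both fell at E9.5. Etv4 read 204, 133 and 132 at E7.5, 289, 269 and 212 at E8.5, 73.4, 68.5 and 20.003 at E9.5 and 103, 28.9 and 18.6 at E10.5. The E8.5 arrays were the highest and did not overlap with any other early stage. The change at E9.5 was -1.89 ± 0.35 (SE; adjusted p = 0.000652), called under each of its 29 alternatives, and E10.5 against E7.5 differed by -1.40 ± 0.35 (SE; adjusted p = 0.00195). From E12.5 to E18.5 its stage means lay between 15.9 and 28.2, under the array median. Etv5 kept a higher signal relative to the array median: 1038, 1289.9 and 1411 at E7.5, 1114, 1148 and 1198 at E8.5, 583, 555 and 525 at E9.5 and 622, 586 and 475 at E10.5. The first 2 stages lay wholly above the last 2. Its step of -1.02 ± 0.12 (SE; adjusted p = 5.33e-06) lies on the 2-fold limit, with -0.997 without E8.5 replicate 3, -0.99 without E9.5 replicate 3 and -0.92 after quantile normalization. Over the period it fell by 1.11 on the log2 scale (SE 0.12; adjusted p = 1.62e-07). When all probe sets were averaged in place of the brightest, the changes from E7.5 to E10.5 were -0.84 for Etv4 and -0.94 for Etv5, under 2-fold. The other probe set of Etv4, tested singly in limma, was not called in either comparison. It differed by -0.67 (adjusted p = 0.309) from E8.5 to E9.5 and by -0.28 (adjusted p = 0.573) from E7.5 to E10.5.

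Dusp6 and Il17rd, both brakes on ERK signalling, were higher at E10.5 than at E7.5, in the opposite direction to Etv4 and Etv5. Dusp6 read 901, 1208 and 1398 at E7.5, 1889, 2009.9 and 1909 at E8.5, 2027, 1783 and 1832 at E9.5 and 2462, 1958 and 1808 at E10.5. Every array from E8.5 to E10.5 was above every E7.5 array, and the difference of 0.83 ± 0.13 (SE; adjusted p = 1.18e-05) was under 2-fold. From E12.5 to E18.5 Dusp6 differed by -0.02 (95% interval -0.35 to 0.30). Il17rd went from 645, 739 and 855 at E7.5 to 1356, 2239 and 1539 at E8.5, a rise of 1.15 ± 0.15 (SE; adjusted p = 2.98e-06) that was 0.94, under 2-fold, without E8.5 replicate 2. It then read 1371, 1450.2 and 1152 at E9.5 and 1354, 1239.7 and 1339 at E10.5. In the later set it read 923 and 994 at E12.5, 659 and 526 at E14.5, 299 and 319 at E16.5 and 344 and 299 at E18.5. The first 3 of these stages did not overlap, and the 2 last did. The change from E12.5 to E18.5 was -1.51 ± 0.18 (SE; adjusted p = 8.03e-07), or 2.84-fold, and held without any single array. The steps from E12.5 to E14.5 and from E14.5 to E16.5 were -0.68 ± 0.18 (SE; adjusted p = 0.0185) and -0.88 ± 0.18 (SE; adjusted p = 0.00322). The mean of the probe sets of Il17rd gave 0.69 for the early rise and -0.89 for the later fall, under 2-fold. Its other probe set, tested singly in limma, was not called in either comparison. It differed by 0.23 (adjusted p = 0.475) from E7.5 to E8.5 and by -0.27 (adjusted p = 0.442) from E12.5 to E18.5.

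**Figure D4:**
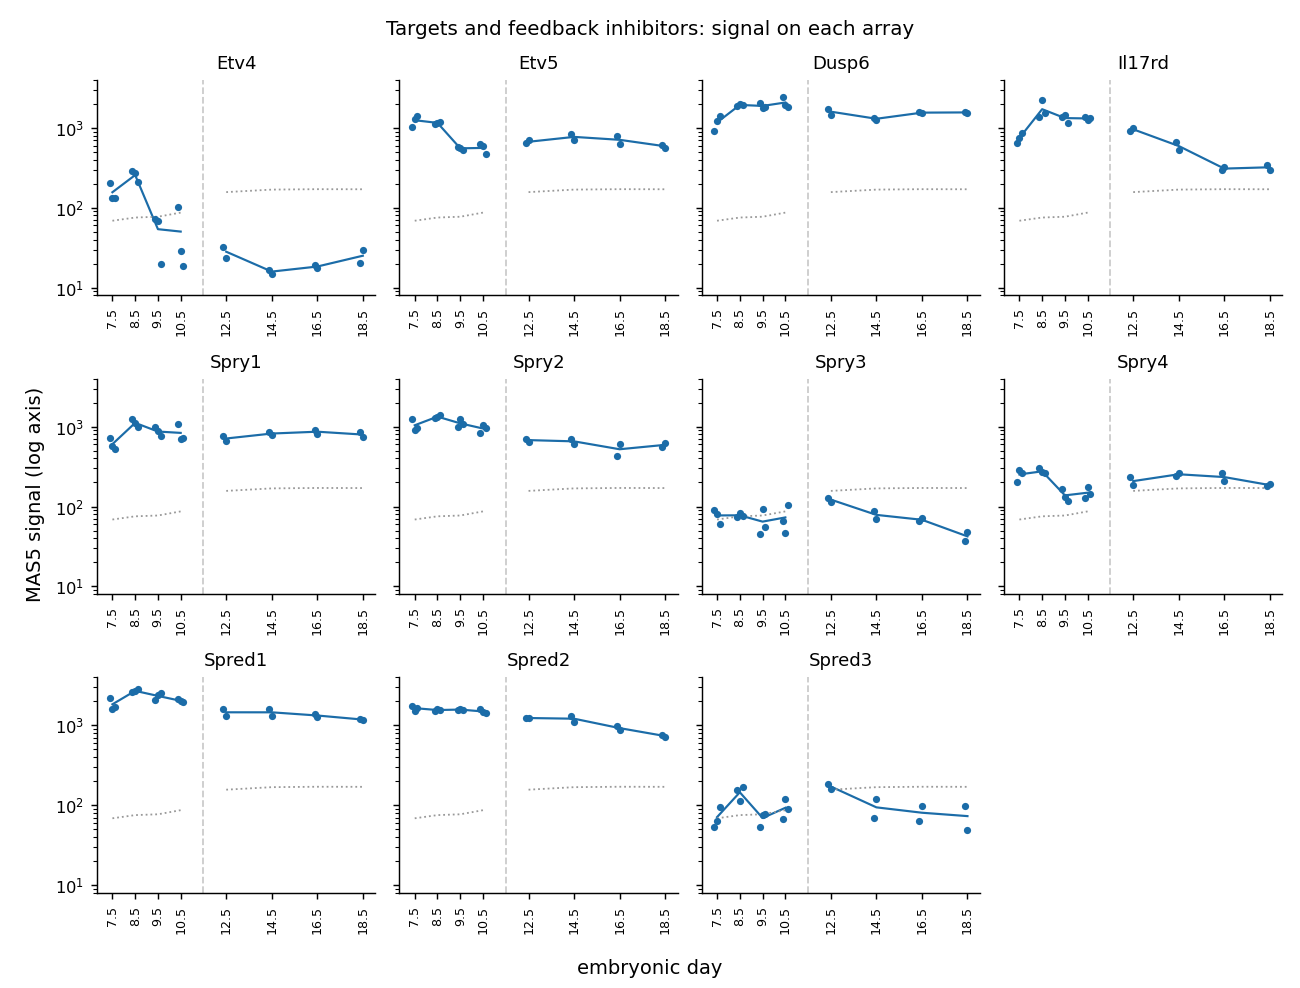
MAS5 signal (log axis) of the 11 target and feedback genes against embryonic day; points are arrays, solid lines join stage means, dotted lines are the mean array median, and the dashed line separates the array sets. Etv4 and Etv5 step down between E8.5 and E9.5, Il17rd declines from E12.5 to E16.5, and Spry1, Spry2, Spred1 and Spred2 stay above the dotted line on every array.

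Of the 7 Sprouty and Spred genes, Spry3 and Spred3 fell from E12.5 to E18.5, beside 6.44% of all genes tested. From E7.5 to E10.5, 0 of the 7 were called, while 16% of all genes rose and 7.49% fell. Spry1, which limits FGF and GDNF signalling in kidney and elsewhere, read 716, 568 and 527 at E7.5 and 1238, 1118 and 989 at E8.5, a difference of 0.86 ± 0.15 (SE; adjusted p = 0.000114) without overlap but under 2-fold. Spry4 was lower at E9.5, with 300.001, 268 and 259 at E8.5 and 164, 131 and 119 at E9.5 (-0.89 ± 0.17 SE, adjusted p = 0.000938), the same step in which Etv4 and Etv5 fell. Spry2 had stage means from 947 to 1334 over the early stages and differed by -0.12 (95% interval -0.40 to 0.15) between E7.5 and E10.5. Spry3, whose later arrays were all under the array median, read 129.6 and 114 at E12.5, 87.4 and 69.8 at E14.5, 65.2 and 71.3 at E16.5 and 37.2 and 47.5 at E18.5. Its E18.5 arrays were the lowest, and the change of -1.12 ± 0.31 (SE; adjusted p = 0.00456) held without any single array. Spred3 read 184 and 159 at E12.5 and 96.999 and 49.5 at E18.5. That change, -1.04 ± 0.33 (SE; adjusted p = 0.0111), rests on single arrays: it was -0.94 (adjusted p = 0.0734) without E12.5 replicate 1 and -0.68 (adjusted p = 0.167) without E18.5 replicate 2, in a range of 0.00494 to 0.167 over its alternatives.

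Spred1 and Spred2, which bind neurofibromin and hold back Ras, differed in their early course. Spred1 read 2202, 1613 and 1697 at E7.5 and 2598, 2692 and 2829 at E8.5 (0.56 ± 0.11 SE, adjusted p = 0.000315), while Spred2 read 1747, 1518 and 1667 and 1521, 1589 and 1560.1. The log2 ratio of Spred1 to Spred2 within an array was 0.15, 0.79, 0.56 and 0.44 at the 4 early stages, and the change passed the exact permutation test (adjusted p = 0.0078) and 26 of 27 alternatives. The exception was the mean of all probe sets, at 0.147. Alternatives that leave out a later array do not change this early ratio. In the later set the mean of Spred2 with the probe set used was lower at each successive stage, from 1243 and 1231 at E12.5 to 759 and 712 at E18.5, with -0.73 ± 0.10 (SE; adjusted p = 5.12e-06), under 2-fold. Another tested probe set of Spred2 differed by -0.51 and a further one by 0.37, higher at E18.5 (adjusted p = 0.0476 and 0.494 in limma). The ratio of Spred1 to Spred2 over those stages did not pass with the probe sets used (adjusted p = 0.076, exact permutation test). Of 12 pairs of related members tested in each array set, 5 passed over the early stages and 2 over the later ones.

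Between E10.5 and E12.5 the stage and the array set cannot be told apart, and the values of that step are given without a count. The members named are those past the adjusted p and 2-fold limits in limma. Others differed by less than 2-fold at an adjusted p below 0.05, in both directions, so the list does not show the balance of the step. Fgf7 read 4.18, 21.1 and 19.6 at E10.5 and 207 and 196 at E12.5, a difference of 2.50 ± 0.32 (SE). Fgfr4 differed by 2.12, Fgf11 by 1.68, Fgf14 by 1.63, Fgf18 by 1.41 and Fgf10 by 1.10, all higher in the E12.5 arrays. Fgf8 was lower, with 145, 149 and 147 at E10.5 and 32.04 and 8.89 at E12.5, a difference of -1.95. The array medians were 79.9 to 91.1 at E10.5 and 156 to 158 at E12.5, and the median change over all genes tested on the log2 scale was 0.12.

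The choice of probe set matters for several members. Of the 38, 24 have more than 1 probe set, and 65 probe sets of members were tested singly among 25563, a fit chosen after the data were seen. For Fgf4 the probe set used had stage means of 114 at E7.5 and 84.3 at E10.5. Another had 161 and 20.9, and a further one 134 and 7.33. Both of these fell, with changes of -2.01 ± 0.37 (SE; adjusted p = 0.000124) and -2.25 ± 0.30 (SE; adjusted p = 2.83e-06). For Fgf7 the probe set used and the other one moved in opposite directions from E7.5 to E10.5, with -0.94 ± 0.28 (SE; adjusted p = 0.00793) and 0.999 ± 0.26 (SE; adjusted p = 0.00335), neither past 2-fold. In the later set both were higher at E18.5, and the second rose (1.14 ± 0.32 SE, adjusted p = 0.00675). The other tested probe set of Fgf1 rose in both periods, by 1.005 ± 0.34 (SE; adjusted p = 0.0164) and 1.88 ± 0.41 (SE; adjusted p = 0.000905). The 4 tested probe sets of Fgfr4 ranged from -2.68 to -0.42 over the early period, and 3 of them fell. For Spry4, 2 probe sets that were not used fell over the early period, at -1.27 ± 0.31 (SE; adjusted p = 0.00176) and -1.28 ± 0.33 (SE; adjusted p = 0.00271), and a further one rose in the later period (1.13 ± 0.45 SE, adjusted p = 0.0473). Another probe set of Fgf9 rose from E7.5 to E10.5 (1.14 ± 0.21 SE, adjusted p = 9.73e-05), and another of Fgf17 fell from E12.5 to E18.5 (-1.22 ± 0.45 SE, adjusted p = 0.0348). Which transcript or part of a transcript each probe set reads was not examined.

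**Figure D5:**
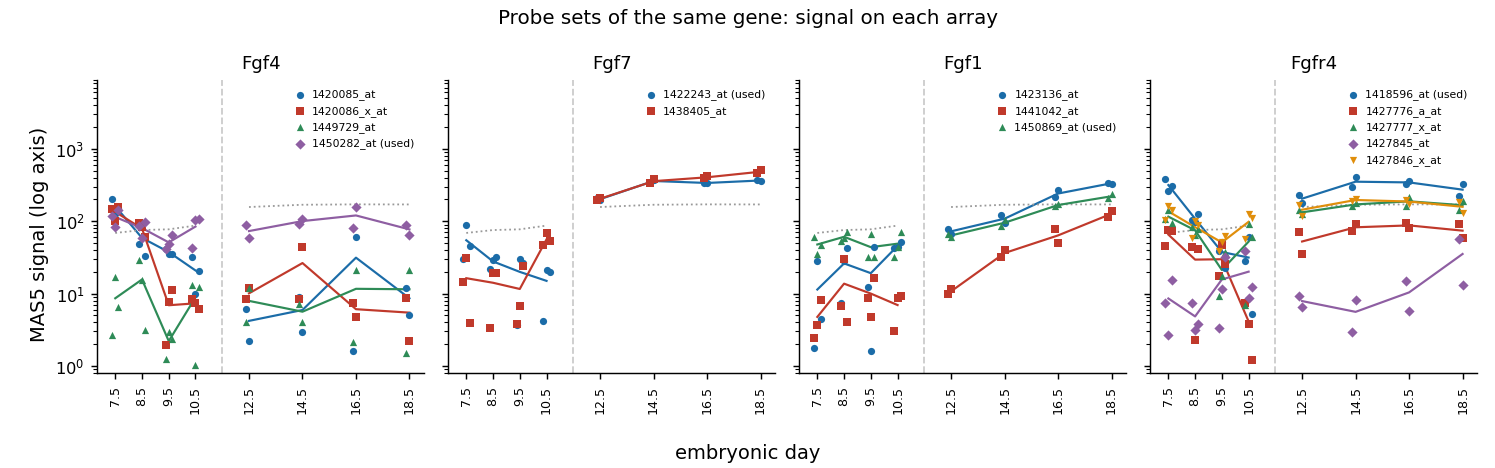
MAS5 signal (log axis) of each probe set of Fgf4, Fgf7, Fgf1 and Fgfr4 against embryonic day; colours and symbols are probe sets, points are arrays, solid lines join stage means, dotted lines are the mean array median, and the dashed line separates the array sets. In the Fgf4 panel the probe sets drawn as blue circles and red squares are lower at E10.5 than at E7.5, while the one used (purple diamonds) has 2 of its 3 E10.5 arrays within the range of its E7.5 arrays.

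The wider pathway was read from 3 lists of genes. Of the co-receptors, heparan sulfate enzymes and proteoglycans and FGF-binding proteins, 22 of 25 were tested: 7 rose and 3 fell from E7.5 to E10.5, 31.8% and 13.6%, beside 16% and 7.49% of all genes tested. Their median change was 0.49 against 0.11 over all genes. Flrt2, a membrane protein that can bind FGF receptors, went from 91.4 ± 38.1 to 2104 ± 90.5 (SD, n = 3 each), a rise of 4.23 ± 0.17 (SE; adjusted p = 2.07e-14). Fgfbp3, which carries FGFs away from the matrix, rose by 2.58 ± 0.19 (SE; adjusted p = 3.22e-10). Klb, a klotho co-receptor of some endocrine FGFs and a usual partner of Fgfr4, went from 1228 ± 141 to 40.9 ± 7.32 (SD, n = 3 each), a change of -4.23 ± 0.26 (SE; adjusted p = 2.24e-11). It fell over the same period as Fgfr4 and as the visceral endoderm markers given above, whose part was not tested. Fgfbp1 fell as well (-2.34 ± 0.27 SE, adjusted p = 3.19e-07). From E12.5 to E18.5, 3 of these 22 rose and 3 fell, 13.6% each, beside 15.2% and 6.44% of all genes, with a median of -0.33 against -0.09. The share that rose was near that of all genes. Fgfbp1 rose (4.29 ± 0.33 SE, adjusted p = 2.18e-09), and so did Klb (1.92 ± 0.32 SE, adjusted p = 3.91e-05), while Fgfbp3 (-1.63 ± 0.23 SE, adjusted p = 6.4e-06) and Flrt3 (-1.25 ± 0.13 SE, adjusted p = 1.01e-07) fell. Klb and Fgfbp1 thus moved in opposite directions in the 2 periods.

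Of the adaptors and Ras-MAPK relay genes, 14 of 22 were tested. From E7.5 to E10.5, 2 rose and 0 fell in limma: Rps6ka3, a kinase downstream of ERK (2.15 ± 0.08 SE, adjusted p = 9.72e-15), and Sos2, a Ras exchange factor (1.24 ± 0.15 SE, adjusted p = 8.64e-07). The 14.3% that rose is near the 16% of all genes, and 7.49% of all genes fell. At an unadjusted p below 0.05, 6 were higher and 3 lower. From E12.5 to E18.5, 0 rose and 0 fell in limma, beside 15.2% and 6.44% of all genes, with 3 higher and 3 lower at an unadjusted p below 0.05. The third list, other brakes of the pathway and further ETS factors, had 18 of 19 tested, of which 3 rose and 2 fell in the early period (16.7% and 11.1%, beside 16% and 7.49% of all genes, so that the share that rose was near that of all genes). Shisa3, which holds back FGF receptors before they reach the surface (3.82 ± 0.24 SE, adjusted p = 2.99e-11), and Ets1 (1.56 ± 0.15 SE, adjusted p = 2.31e-08) rose. Etv2, an ETS factor of blood and vessel precursors (-2.66 ± 0.26 SE, adjusted p = 2.73e-08), and Dusp9, an ERK phosphatase (-1.88 ± 0.15 SE, adjusted p = 1.39e-09), fell. In the later period 2 rose and 4 fell (11.1% and 22.2%, beside 15.2% and 6.44% of all genes), among them Dusp14 (1.78 ± 0.22 SE, adjusted p = 1.09e-06) and Dusp5 (1.05 ± 0.43 SE, adjusted p = 0.0487) upward and Dusp9 (-1.96 ± 0.18 SE, adjusted p = 3.23e-08) and Dusp4 (-1.81 ± 0.14 SE, adjusted p = 3.29e-09) downward. Dusp5 was dim, at 34.1 ± 16.6 at E12.5 and 107.5 ± 77.5 at E18.5 (SD, n = 2 each). Both means were under the array medians of their stages, and the E18.5 arrays lay far apart. The ERK phosphatase Dusp6 differed by -0.02 from E12.5 to E18.5.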

How the data were processed

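Whole-embryo RNA of 8 stages was measured on 20 arrays, of which the number limits the precision. The deposited values are probe-set intensity readings on a linear scale, which the authors obtained with MAS5, per the submitters' processing notes. The version and settings are not given in the sources used here. On each array the mean without the lowest and highest 2% of values was 500, so the arrays share a common scale and were not normalized further. Of 45101 probe sets, 64 are controls. The 34958 annotated with 1 symbol entered the analysis, not the 932 with several or the 9211 with none. Of the Entrez identifiers, 34754 matched a RefSeq gene table and 0 symbols changed.

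A gene was represented by the probe set with the highest mean log2 value. From the deposited intensity, log2(signal + 25.9) was computed, the pseudocount being the typical (median) 25th percentile of an array. Fold changes are on that scale, which understates changes of dim genes. Stage means of the 20 arrays were fitted together with limma 3.58.1 (R 4.3.3; lmFit, then eBayes with trend, 12 residual degrees of freedom). Tests were two-sided and adjusted by Benjamini-Hochberg across the 14045 genes above the array median on at least 2 arrays. Single-gene adjusted p-values are from this fit, which was tested on simulated data. Ratios of 12 pairs of related members were tested within each array set by an exact permutation test of the F statistic over all 15400 or 105 allocations of arrays to stages, whose smallest possible p-values are 6.5e-05 and 0.0095, adjusted over 24 tests.

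Every member is described by its role. Of each pathway list, up to 2 called genes each way per long comparison are named. The members, pairs and lists were chosen with earlier results of these data known. The alternatives are quantile normalization, scaling by the 75th percentile, other pseudocounts and filters, the mean of all probe sets, no minimum fold, the arrays of 1 set, the replicate block and each array left out. No minimum fold cannot lose a called change. Leaving out an array of another stage leaves a single-gene change as it was, apart from its SE and p. Leaving out an array of the other set leaves a paralogue ratio as it was. All of these are among the alternatives counted. Promoters are RefSeq's for GRCm38.p6.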

Additional observations from a re-analysis of the deposited data

How the results depend on the processing

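Deviations of same-numbered arrays correlated at -0.07 to 0.282 (median 0.032), over 0.1 in 13 of 62 pairs of arrays, which is short of the limit for pairing (over 0.1 in every pair). Arrays of other numbers exceeded 0.1 in 0 of 112 pairs (highest 0.0974), and replicate 1 had the lowest array median at each early stage. With the replicate block, 1 member rose and 4 fell from E7.5 to E10.5, 2 rose and 4 fell from E12.5 to E18.5, 14 calls were made over the 6 steps inside an array set, and the F tests called 12 and 6, so that no count moved by over 1.5 times. The paralogue ratios have no such fit, and their permutation tests take no account of the numbers.

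Without the block the counts were 1 and 4 early, 2 and 4 late, 14 over the steps, 12 and 5 in the F tests, and 5 and 2 pairs. Quantile normalization gave 1 later rise and 1 later pair. Scaling by the 75th percentile gave 3 in the later F test. A pseudocount 4 times smaller gave 3 early rises, 1 later rise and 1 later pair. A pseudocount 4 times larger gave 0 early rises, 0 later rises, 1 later fall, 7 step calls and 1 in the later F test. A filter at the 75th percentile of the array, which tests fewer genes, gave 0 rises and 2 falls early, 0 and 2 late, 6 step calls, 5 and 2 in the F tests, and 3 and 0 pairs. The mean of all probe sets gave 9 step calls and 2 and 0 pairs. With no minimum fold, 11 rose and 8 fell early, 35 step calls were made, and the F tests called 25 and 8. Except for the filter and the fold limit, whose construction sets the direction, the cause was not tested.

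Leaving out 1 array at a time gave 0 to 4 early rises (0 without E10.5 replicate 2, 4 without E10.5 replicate 3, 2 without E7.5 replicate 1 or E10.5 replicate 1), 4 to 5 early falls, 0 to 2 later rises (1 without E12.5 replicate 1, 0 without either E18.5 array) and 3 to 5 later falls. The step calls ranged from 11 to 15. The early F test called 12 to 15, and the later one 2 to 5: 2 without E18.5 replicate 2, and 3 without E18.5 replicate 1 or either E12.5 array. Early pairs ranged from 2 to 6 and later pairs from 0 to 2, both lowest without E16.5 replicate 2 or E18.5 replicate 2. The early ratios do not use the later arrays, so leaving out a later array moved the early count only through the filter and the adjustment over both sets. Where a stage kept 1 array, it was assumed to vary like the others. Of 25 called single-gene changes, 8 were called under every alternative they could be fitted in and 0 changed sign. Members below the array median have values near background, and their changes are less certain.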
